A study of Mus musculus with 6 samples.

Results

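The brakes on oligodendrocyte differentiation described here are 10 genes, *Id1*, *Id2*, *Id3*, *Id4*, *Hes1*, *Hes5*, *Notch1*, *Lingo1*, *Axin2* and *Sox6*. They were chosen by symbol, as a list of inhibitors of oligodendrocyte differentiation that act in or beside the Notch, BMP and Wnt pathways. *Axin2* is in the list as a target and feedback inhibitor of Wnt, so for it "brake" is only the name of the list. All 10 were found among the 55492 genes of the deposited table, and all 10 passed the filter on low expression that left 15245 genes for testing. RNA came from O4+ cells of mouse brains at postnatal day 16 (P16), from 3 WT and 3 Npc1-/- mice, with 1 poly(A) library per mouse and no treatment. Npc1-/- mice lack the lysosomal cholesterol transporter NPC1 in every cell of the body; they carried the *Npc1* nih allele and were F1 hybrids of BALB/cJ and C57BL6/J parents. The O4 antigen, a lipid on late progenitors and immature oligodendrocytes, was bound by antibody-coated magnetic microbeads, so the libraries hold whatever the beads and column retained. A change may therefore stand for fewer cells of a type or for less RNA per cell, which cannot be told apart in bulk RNA.

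Progenitors of oligodendrocytes are held back from differentiating by several signals. Notch receptors on the progenitor bind Jagged and Delta ligands on neighbouring cells, are cut, and release a fragment that acts with RBPJ to switch on *Hes1* and *Hes5*, which encode repressors of differentiation genes. BMP signals act through Smad proteins to switch on the Id genes, whose proteins bind E proteins and OLIG factors and keep them off DNA. Wnt signals stabilize β-catenin, and *Axin2* is both a target of that pathway and a feedback inhibitor of it. LINGO1 is a surface receptor component that restrains differentiation and myelination, and SOX6 is a SoxD factor that keeps progenitors immature by competing with SOX10. Most of these genes are also used outside the lineage: *Notch1*, *Id1*, *Id3* and *Hes1* are active in blood vessels, and *Id3*, *Id4* and *Hes5* in astrocytes and their precursors.

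The sequences just upstream of a RefSeq start of 3 of the genes are shown with the letters that the pathways' factors bind. *Hes5* was taken as the classical Notch target, and *Id4* as an Id gene whose lower mean in the mutant did not pass the test. *Notch1* was the only brake that passed the test for a difference between the genotypes. Each is the 250 bases before a transcription start in RefSeq on GRCm38.p6, read in the direction of the gene, with capitals for matches to 3 motifs. The motifs were GTGGGAA (bound by RBPJ), GGCGCC (a GC-rich element bound by BMP Smads, the same on both strands) and CTTTGAT (bound by TCF and LEF factors), searched on both strands and with no overlap among the matches shown.
Hes5: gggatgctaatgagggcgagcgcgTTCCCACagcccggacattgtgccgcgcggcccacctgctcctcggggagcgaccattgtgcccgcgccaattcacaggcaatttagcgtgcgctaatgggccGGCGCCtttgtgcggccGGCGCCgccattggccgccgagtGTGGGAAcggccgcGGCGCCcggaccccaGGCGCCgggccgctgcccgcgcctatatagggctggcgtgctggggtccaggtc
Id4: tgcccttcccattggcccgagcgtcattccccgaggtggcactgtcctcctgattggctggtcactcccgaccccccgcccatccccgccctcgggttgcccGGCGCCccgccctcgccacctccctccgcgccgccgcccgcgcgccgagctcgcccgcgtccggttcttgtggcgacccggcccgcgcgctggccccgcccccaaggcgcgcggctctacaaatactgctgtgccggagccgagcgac
Notch1: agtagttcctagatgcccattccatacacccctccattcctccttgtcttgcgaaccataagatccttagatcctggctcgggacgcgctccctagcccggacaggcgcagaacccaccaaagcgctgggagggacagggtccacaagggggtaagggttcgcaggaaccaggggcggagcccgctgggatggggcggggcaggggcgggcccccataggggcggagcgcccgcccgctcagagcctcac

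The *Hes5* stretch lies at chr4:154960673-154960922 on the plus strand, the *Id4* stretch at chr13:48260866-48261115 on the plus strand and the *Notch1* stretch at chr2:26503823-26504072 on the minus strand. The *Notch1* stretch ends next to the start of the coding transcript annotated in GENCODE from 26457903 to 26503822; another coding transcript starts further upstream, at 26516663, so the stretch lies within the span of the gene as a whole. The *Hes5* window holds the RBPJ letters 2 times, 226 and 83 bases before the start counted from the first letter, in opposite orientations, and the Smad letters 4 times. The *Id4* window holds the Smad letters 1 time, 148 bases before the start. Of 32851 such windows over all genes, 5.42% hold GTGGGAA, 9.59% hold GGCGCC and 3.21% hold CTTTGAT on either strand. A RefSeq start was matched for 8 of the 10 genes, with 14 windows in all, of which 1 holds GTGGGAA (*Hes5*), 3 hold GGCGCC (*Hes5*, *Id2* and *Id4*) and 1 holds CTTTGAT (*Sox6*). A match describes the letters alone and is not a measured binding site.

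Sequencing depth, which the spacing of the lowest FPKM of single-transcript genes gives, was between 40500000 and 50750000 fragments per library. *Npc1*, the inactivated gene, had between 45.5 and 53.3 TPM (a level per transcript length, relative to all transcripts of the library) in WT and between 3.16 and 4.42 TPM in Npc1-/- samples. *Mbp* took from 18.8% to 26.1% of all TPM, so TPM was scaled by a size factor per library; this scaled TPM is the level given throughout, with the mean and SD over 3 mice. Npc1-/- replicate 3 had *Xist* at 15.6 TPM, against at most 0.01 elsewhere. *Ddx3y*, a gene of the Y chromosome, was at 0 TPM in that library and between 14.4 and 23.6 TPM in the others. By these transcripts that library came from a female and the others, all WT libraries among them, from males. Sex was not in the model, and its part in the results was not tested. Mature, immature and progenitor markers of the lineage were present in every library, and so were markers of other cells, whose levels are given with the results. Fold changes compare Npc1-/- with WT on log2(scaled TPM + 0.5) and were tested with limma (two-sided) with Benjamini-Hochberg adjustment over the 15245 genes. A gene was called at an adjusted p below 0.05 and a log2 change of 0.1 or more in size, a rule met by 61 genes that were higher and 63 that were lower in Npc1-/- mice. On TPM as deposited, without size factors, those numbers were 54 and 870.

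Of the 10 brakes, only *Notch1* was called lower, at a level of 0.438 relative to WT, and no brake was called higher. Called genes with lower expression made up 0.413% of all genes tested, and those with higher expression 0.400%. At an unadjusted p below 0.05, 7 of the 10 were lower (*Notch1*, *Id1*, *Id3*, *Id4*, *Hes1*, *Axin2* and *Sox6*), against 11.6% of all genes, and 0 were higher, against 10.6%. These shares are the background for the counts at that threshold in every list below. In 6 of the 10 every Npc1-/- sample lay below every WT sample, which held for 14.2% of all genes. In 9 of the 10 the log2 change was below 0, against 49.0% of all genes, and its median was −0.43, against 0.01 over all genes tested. *Id2*, *Lingo1* and *Hes5* had differences within the spread between mice. An exact permutation test on 3 mice against 3 cannot give a p below 0.1.

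**Figure D1:**
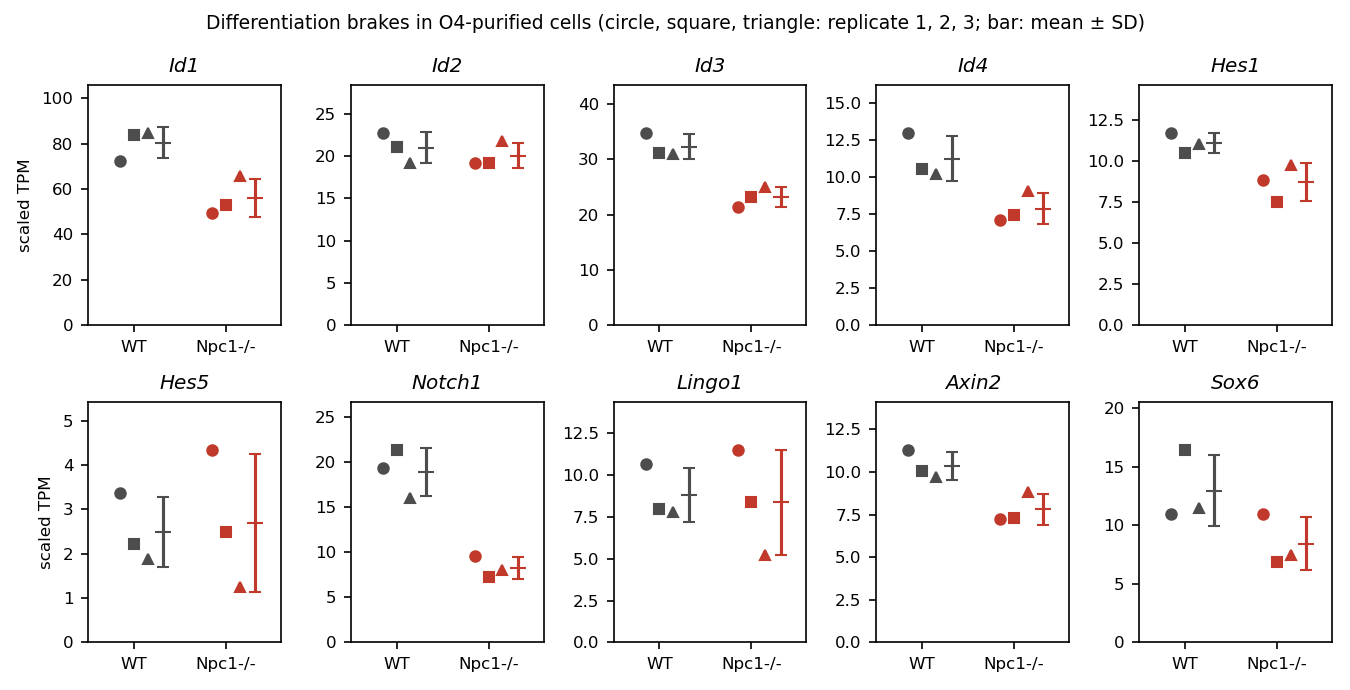
Scaled TPM (vertical axes, from 0) of the 10 brakes in WT (grey) and Npc1-/- (red) mice; circle, square and triangle mark mice 1, 2 and 3, and the bar gives the mean ± SD of 3 mice. Notch1, Id1, Id3, Id4, Hes1 and Axin2 do not overlap between the genotypes, while Id2, Hes5, Lingo1 and Sox6 do.

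*Notch1* (ENSMUSG00000026923, minus strand of chromosome 2 of GRCm38, 26457903 to 26516663) encodes the Notch receptor best known for holding progenitors undifferentiated. Its scaled TPM was 19.3, 21.4 and 16.0 in WT mice 1, 2 and 3 and 9.64, 7.24 and 8.0 in Npc1-/- mice 1, 2 and 3. The highest mutant value was well under the lowest WT value, and the means were 18.9 ± 2.69 (SD, n = 3) and 8.29 ± 1.23 (SD, n = 3). The log2 change was −1.14 (standard error, SE, 0.15, adjusted p = 0.0364 by limma), and 0.453% of all genes had a larger fall. The call was kept without Npc1-/- replicate 3 (adjusted p = 0.0393 by limma) and lost without any of the other 5 samples, with an adjusted p of up to 0.181 by limma without Npc1-/- replicate 2, while the log2 fold change stayed between −1.25 and −1.05. It was also lost with no filter on low values (adjusted p = 0.0970 by limma) and without the trend in the variance (adjusted p = 0.0562 by limma). The gene has 11 annotated transcripts. The non-coding genes on the other strand within it did not exceed 0.76 TPM.

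The remaining Notch receptors were measured at higher levels than *Notch1* in the case of *Notch3* and *Notch4*. *Notch3*, the receptor of vascular mural cells, had 40.7, 32.5 and 37.1 scaled TPM in WT and 16.2, 14.6 and 21.5 in Npc1-/- mice 1, 2 and 3, with no overlap (log2 change −1.07, SE 0.16, adjusted p = 0.0429 by limma). *Notch4*, the receptor of endothelial cells, had the highest level of the 4, with 51.3 ± 4.27 (SD, n = 3) in WT mice and 33.4 ± 7.87 (SD, n = 3) in Npc1-/- samples; its log2 change of −0.63 did not pass (adjusted p = 0.0923 by limma). The 4 receptors summed to 111 scaled TPM in each WT sample and to 54.5, 65.5 and 65.1 in Npc1-/- mice 1, 2 and 3. *Notch1* made up 17.0% ± 2.39 (SD, n = 3) of that sum in WT and 13.7% ± 3.53 (SD, n = 3) in mutant cells, shares that overlapped.

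Among the 7 Notch ligands, *Dll4*, a Delta ligand of the endothelium, fell from 8.60, 6.81 and 7.49 scaled TPM in WT to 4.26, 4.02 and 3.21 in Npc1-/- mice 1, 2 and 3 (log2 change −0.91, SE 0.14, adjusted p = 0.0446 by limma). No other ligand was called. *Jag1* and *Jag2*, named after their values were seen, had log2 fold changes of −0.63 and −0.62 (adjusted p = 0.0518 and 0.0709 by limma), and neither overlapped between the genotypes. *Cntn1*, an axonal and glial adhesion protein that also binds Notch and had the highest level of the list, had 83.4 ± 5.13 (SD, n = 3) in WT mice and 67.2 ± 16.2 (SD, n = 3) in mutant cells (log2 change −0.34, adjusted p = 0.302 by limma). Like *Notch1*, *Notch3* and *Dll4* were called without Npc1-/- replicate 3 and not without any of the other 5 samples.

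The machinery between receptor and nucleus showed no called gene. None of 15 genes for cleavage and modification of the receptor passed (limma; 1 higher and 3 lower at an unadjusted p below 0.05), with a median log2 fold change of −0.10. *Psenen*, a γ-secretase subunit, had both the highest level and the smallest p of that list: 58.0, 60.4 and 62.0 scaled TPM in WT against 73.7, 79.8 and 77.1 in Npc1-/- mice 1, 2 and 3, with no overlap (log2 change 0.35, adjusted p = 0.0666 by limma). Without size factors, where the median of all genes shifted to −0.33, its value was −0.019. Of the nuclear complex, *Rbpj*, the DNA-binding factor, had 6.90 ± 1.62 (SD, n = 3) and 7.46 ± 0.823 (SD, n = 3), and its coactivator *Maml2* had 4.06 ± 0.267 (SD, n = 3) and 3.00 ± 0.211 (SD, n = 3) in WT mice and Npc1-/- cells, the latter with an adjusted p of 0.113 by limma.

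The Notch targets *Hes1* and *Hes5* were both without a call, and whether they differed in response was not tested. *Hes1* (ENSMUSG00000022528, chromosome 16, 30064384 to 30067796) had 11.7, 10.5 and 11 scaled TPM in WT and 8.84, 7.47 and 9.76 in Npc1-/- mice 1, 2 and 3. Every mutant value was below every WT value, but the log2 change of −0.34 did not pass (SE 0.12, adjusted p = 0.155 by limma). *Hes5* (ENSMUSG00000048001, chromosome 4, 154960923 to 154962371) had 3.37, 2.21 and 1.88 in WT and 4.34, 2.49 and 1.24 in mutant cells, so that the mutant mice held both the highest and the lowest value. Its log2 change was 0.00, with a 95% interval from −0.87 to 0.88, which includes the difference measured for *Hes1*. At these levels *Hes5* stands for at most 34 to 149 fragments per library, if all came from its longest transcript of 1273 bases, and its overlapping non-coding neighbour *Gm20421* on the other strand had 0.30 to 0.61 TPM.

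The other targets of the pathway gave no call either (limma, 0 of 6 targets called, 4 lower and 0 higher at an unadjusted p below 0.05). *Hey1*, a repressor related to the Hes genes, had the highest level, 22.3 ± 0.964 (SD, n = 3) in WT mice and 17.1 ± 2.45 (SD, n = 3) in Npc1-/- samples (log2 change −0.38, adjusted p = 0.113 by limma). *Nrarp*, a feedback inhibitor induced by Notch, had the smallest p, with 18.1 ± 2.91 (SD, n = 3) and 12.6 ± 1.13 (SD, n = 3) (log2 change −0.50, adjusted p = 0.0891 by limma). Over the 36 genes of the Notch lists, 3 were called lower and 0 higher, against 0.413% and 0.400% of all genes. At an unadjusted p below 0.05, 15 of the 36 were lower and 1 higher, against 11.6% and 10.6% of all genes. The median log2 change of the 36 was −0.19.

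The Id genes were present in the order *Id1*, *Id3*, *Id2* and *Id4* in WT, levels that can be set side by side because TPM is per length. *Id1* (ENSMUSG00000042745, chromosome 2, 152736251 to 152737410), above 91.9% of tested genes in mean level, had 72.6, 83.7 and 84.9 scaled TPM in WT and 49.3, 53.2 and 65.6 in Npc1-/- mice 1, 2 and 3. The genotypes did not overlap, and the means were 80.4 ± 6.79 (SD, n = 3) and 56.0 ± 8.51 (SD, n = 3). The log2 fold change of −0.52 (SE 0.13) did not pass (adjusted p = 0.0777 by limma). Without Npc1-/- replicate 3, the mutant library nearest to WT and the only one from a female, it was −0.64 and passed (adjusted p = 0.0421 by limma).

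*Id3* (ENSMUSG00000007872, chromosome 4, 136143497 to 136145755) had 34.8, 31.2 and 30.9 scaled TPM in WT and 21.3, 23.1 and 24.9 in Npc1-/- mice 1, 2 and 3, again without overlap. Its log2 change of −0.47 (SE 0.10) came with an adjusted p of 0.0589 by limma, or 0.0483 without Npc1-/- replicate 3. *Id4* (ENSMUSG00000021379, chromosome 13, 48261228 to 48266026) had 13.0, 10.6 and 10.2 in WT and 7.12, 7.44 and 9.06 in mutant cells, a log2 change of −0.49 (SE 0.14, adjusted p = 0.0982 by limma). *Id2* (ENSMUSG00000020644, minus strand of chromosome 12, 25093799 to 25097140) had 22.8, 21.1 and 19.2 in WT and 19.1, 19.2 and 21.8 in mutant cells, and these ranges overlapped almost wholly. Its log2 change was −0.07 (95% interval from −0.30 to 0.17, adjusted p = 0.761 by limma). The interval of *Id2* overlaps those of *Id1*, *Id3* and *Id4*, and whether *Id2* differed from them in response was not tested.

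Because their proteins act on a shared pool of partners, the Id transcripts were also summed. The sum was 143, 147 and 145 scaled TPM in WT and 96.9, 103 and 121 in Npc1-/- mice 1, 2 and 3. *Id2* made up 14.5% ± 1.35 (SD, n = 3) of it in WT and 18.8% ± 0.910 (SD, n = 3) in mutant cells, with no overlap, while the shares of *Id1*, *Id3* and *Id4* overlapped. The E-protein genes *Tcf3*, *Tcf4* and *Tcf12*, whose products the Id proteins bind, summed to 114 ± 6.53 (SD, n = 3) and 102 ± 10.6 (SD, n = 3). The ratio of Id to E-protein transcripts was 1.2, 1.27 and 1.36 in WT and 0.846, 1.05 and 1.28 in Npc1-/- mice 1, 2 and 3, and the highest mutant value lay within the WT range. *Tcf4* had the smallest p among the 6 partners (log2 change −0.26, adjusted p = 0.214 by limma), and *Olig1*, with the highest level, had 533 ± 55.6 (SD, n = 3) and 545 ± 16.4 (SD, n = 3). None of the 6 was called (limma; 1 lower and 0 higher at an unadjusted p below 0.05).

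**Figure D2:**
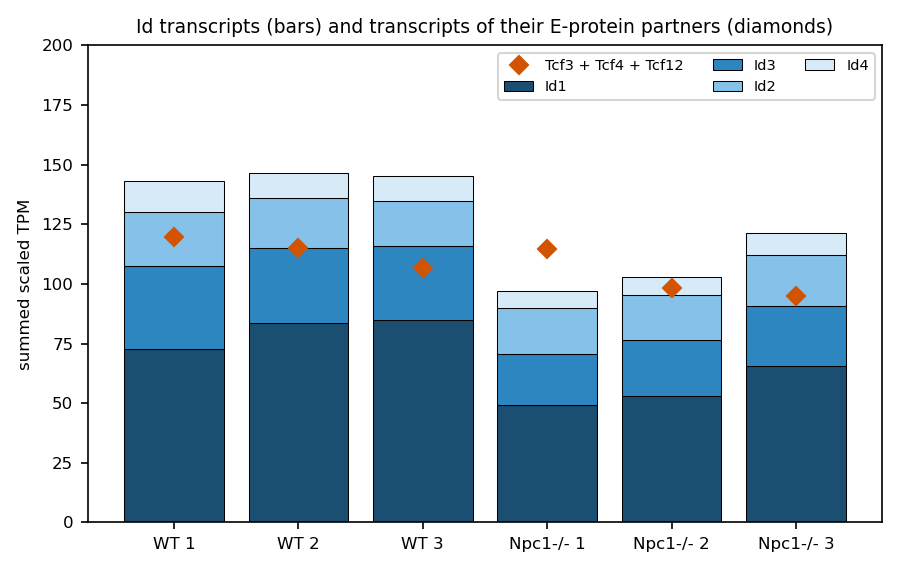
Scaled TPM of Id1, Id3, Id2 and Id4 stacked per sample (bars, vertical axis from 0) with the summed scaled TPM of the E-protein genes Tcf3, Tcf4 and Tcf12 (diamonds). The bars reach 143, 147 and 145 in WT and 96.9, 103 and 121 in Npc1-/- mice.

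BMP ligands, receptors, Smads and inhibitors, listed without the Id genes, had no called gene among 20 tested of 22 listed (limma). At an unadjusted p below 0.05, 5 of the 20 were lower and 0 higher, against 11.6% and 10.6% of all genes. Their median log2 fold change was −0.23. *Bmp4*, the ligand that immature oligodendrocytes make themselves, was the most abundant gene of the pathway, with 153 ± 12.4 (SD, n = 3) in WT mice and 146 ± 43.7 (SD, n = 3) in Npc1-/- cells. Its mutant values of 188, 148 and 101 in mice 1, 2 and 3 held the lowest and the highest of all 6 samples. *Bmp6*, a ligand made by endothelium, had 8.86 ± 1.18 (SD, n = 3) and 5.53 ± 1.26 (SD, n = 3), with an adjusted p of 0.0998 by limma. *Bmpr2*, the type II receptor, was closest to the threshold: 13.1, 12.7 and 13.3 in WT against 8.40, 8.23 and 9.39 in mutant cells (log2 change −0.56, SE 0.09, adjusted p = 0.0503 by limma).

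Downstream of the receptors, *Smad4*, the common Smad, had 16.9 ± 0.971 (SD, n = 3) in WT mice and 15.0 ± 1.13 (SD, n = 3) in mutant cells (adjusted p = 0.374 by limma). Of the inhibitors, *Smad6*, itself a BMP target, had 11, 14.9 and 11.5 scaled TPM in WT and 5.63, 7.43 and 6.72 in Npc1-/- mice 1, 2 and 3, a log2 change of −0.86 (SE 0.15, adjusted p = 0.0528 by limma). *Zeb2*, which antagonizes Smads and is needed for myelination, had the highest level of the inhibitors, with 132 ± 21 (SD, n = 3) and 143 ± 41.7 (SD, n = 3) (log2 change 0.09, adjusted p = 0.861 by limma). Its direction changed on TPM as deposited and after quantile normalization.

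*Axin2* (ENSMUSG00000000142, chromosome 11, 108920349 to 108950783) had 11.3, 10.1 and 9.70 scaled TPM in WT and 7.25, 7.32 and 8.84 in Npc1-/- mice 1, 2 and 3. The genotypes did not overlap, with means of 10.3 ± 0.844 (SD, n = 3) and 7.80 ± 0.894 (SD, n = 3), and the log2 change of −0.39 did not pass (SE 0.12, adjusted p = 0.112 by limma). Of the 6 other feedback targets of Wnt signalling that were tested none was called (limma), and their log2 changes lay between −1.01 and 0.06, with only *Notum* and *Apcdd1* further from 0 than *Axin2*. *Notum*, a secreted Wnt deacylase, had the smallest p of that list, with 16.3, 10.5 and 9.27 in WT and 3.64, 7.36 and 6.23 in mutant cells (log2 change −1.01, SE 0.29, adjusted p = 0.10 by limma). *Apcdd1*, a membrane-bound inhibitor of Wnt, had the highest level, with 85.2 ± 25.1 (SD, n = 3) and 48.6 ± 9.29 (SD, n = 3) (adjusted p = 0.102 by limma).

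The Wnt receptor *Fzd4*, known for its part in the vessels of retina and brain, fell from 13.4, 13.2 and 13.2 scaled TPM in WT to 6.21, 5.66 and 8.16 in Npc1-/- mice 1, 2 and 3 (log2 change −0.95, SE 0.14, adjusted p = 0.0422 by limma). It was the only called gene of the 38 tested in the Wnt lists, and its call too was kept without Npc1-/- replicate 3 alone. Of the 38, 16 were lower and 1 was higher at an unadjusted p below 0.05, against 11.6% and 10.6% of all genes. The coreceptor *Lrp6* had the highest level of the receptors, 17.4 ± 1.49 (SD, n = 3) and 14.2 ± 2.16 (SD, n = 3). In the destruction complex, *Apc* had 115 ± 14.5 (SD, n = 3) and 143 ± 36.8 (SD, n = 3). *Ctnnb1*, which encodes β-catenin and was the most abundant Wnt gene, had 252 ± 8.46 (SD, n = 3) in WT mice and 295 ± 19.9 (SD, n = 3) in mutant cells, without overlap (log2 change 0.23, adjusted p = 0.218 by limma), a direction that changed on TPM as deposited and after quantile normalization. *Tcf7l1*, a TCF repressor, had 10.6 ± 0.812 (SD, n = 3) and 6.87 ± 1.19 (SD, n = 3) (adjusted p = 0.0693 by limma). Of the secreted inhibitors, *Sfrp1* had the highest level, with 7.49 ± 2.95 (SD, n = 3) and 7.41 ± 4.03 (SD, n = 3), and *Sfrp5* the smallest p (log2 change −0.74, adjusted p = 0.153 by limma).

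*Lingo1* (ENSMUSG00000049556, minus strand of chromosome 9, 56618475 to 56796468) had 10.7, 7.99 and 7.76 scaled TPM in WT and 11.5, 8.39 and 5.20 in Npc1-/- mice 1, 2 and 3. As for *Hes5*, the mutant mice held the highest and the lowest of the 6 values. The log2 change was −0.12, with a 95% interval from −0.75 to 0.51 (adjusted p = 0.841 by limma). In its receptor complex, *Rhoa*, the GTPase through which LINGO1 is thought to act, had the highest level, 316 ± 19.9 (SD, n = 3) and 305 ± 14.3 (SD, n = 3). *Rtn4*, which encodes the myelin protein Nogo, a ligand of that complex, had 169 ± 9.34 (SD, n = 3) in WT mice and 212 ± 9.95 (SD, n = 3) in Npc1-/- cells, with no overlap (log2 change 0.32, adjusted p = 0.0982 by limma), and −0.049 without size factors. None of the 9 genes tested in this list was called (limma; 2 higher and 1 lower at an unadjusted p below 0.05).

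*Sox6* (ENSMUSG00000051910, minus strand of chromosome 7, 115470872 to 116038796) had the second largest difference among the brakes, and its samples overlapped between the genotypes. It had 11, 16.4 and 11.5 scaled TPM in WT and 11, 6.85 and 7.49 in Npc1-/- mice 1, 2 and 3, so that mutant replicate 1 lay at the level of WT replicate 1. The log2 change was −0.60 (SE 0.21, adjusted p = 0.162 by limma). None of the 9 Sox genes was called (limma; 3 lower and 0 higher at an unadjusted p below 0.05). *Sox13*, another SoxD gene, had the smallest p, with 22.0, 24.9 and 22.1 in WT and 17.8, 16.5 and 16.6 in mutant cells (log2 change −0.43, adjusted p = 0.0616 by limma). *Sox10*, the factor that drives the myelin program, had the highest level, 174 ± 14.8 (SD, n = 3) and 178 ± 23.1 (SD, n = 3), with no consistent direction under the scalings tried.

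**Figure D3:**
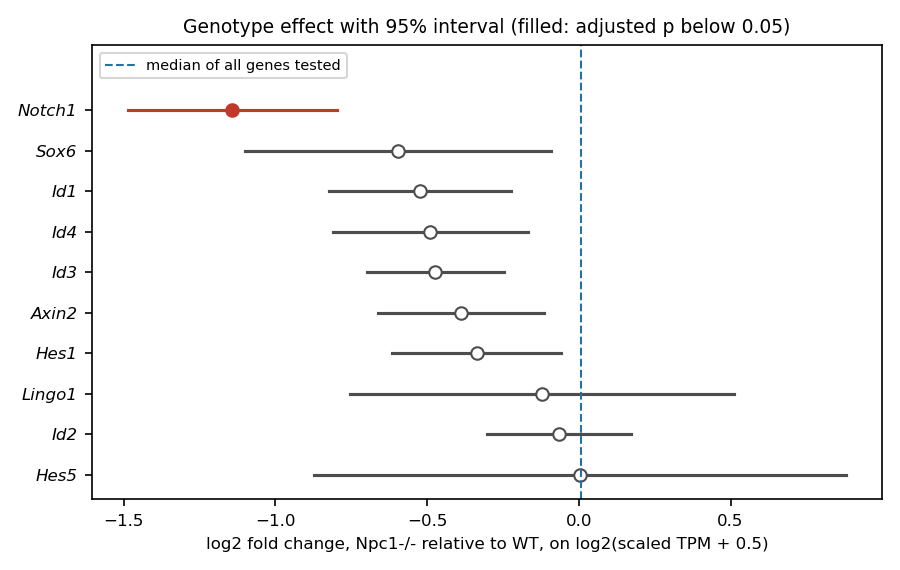
Log2 fold change of each brake, Npc1-/- relative to WT on log2(scaled TPM + 0.5) (horizontal axis), as a point with its 95% interval from limma; filled red marks an adjusted p below 0.05 and the dashed line the median of all genes tested. Only Notch1 is filled, at −1.14, and the intervals of Id2, Lingo1 and Hes5 include 0.

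Markers of other cells differed between the same libraries, and they are given here for the whole lists. All 7 endothelial markers were lower in Npc1-/- samples (median log2 fold change −0.79, 6 without overlap, none called), and their summed level was 876 to 1008 scaled TPM in WT and 443 to 735 in mutant cells. All 5 mural markers were lower (median −0.85, none called), with sums of 620 to 868 and 335 to 460. All 6 microglial markers were lower (median −1.08), with *Tmem119* called and sums of 180 to 281 and 83.1 to 153. Of the 8 astrocyte markers 6 were lower and 2 higher (median −0.33, none called), with sums of 1285 to 1700 and 1386 to 3103. Of these sums *S100b*, a higher marker named after its values were seen, held 621 to 1049 and 966 to 2282. No marker in any list was at 0 in all samples. Over all genes, 11.6% were lower and 10.6% higher at an unadjusted p below 0.05 by limma. At that threshold the astrocyte list had 3 lower and 2 higher genes. The endothelial, mural and microglial lists had 6, 4 and 6 lower genes and no higher ones. These lists moved with *Notch1*, *Notch3*, *Dll4* and *Fzd4* and with the lower values of *Id1*, *Id3*, *Id4*, *Hes1* and *Axin2*, and their part in those results was not tested.

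Set against the mean log2 level of the endothelial list in the same library, the difference between the genotypes in *Notch1* was −0.35, and the samples overlapped. On that scale *Id2*, *Id3*, *Id4*, *Hes1* and *Axin2* were higher in every Npc1-/- sample than in any WT sample, by 0.73, 0.32, 0.30, 0.46 and 0.41, and *Id1* was higher by 0.27 with overlap. Against the mural list the same genes, *Id1* apart, were separated in the same direction, and *Notch1* differed by −0.35 with overlap. Against the microglial list they were too, with *Notch1* at −0.09 with overlap. The endothelial, mural and microglial means themselves differed by −0.79, −0.79 and −1.06. A gene with a smaller fall than the list therefore comes out higher on these scales. How many of all genes tested were separated was not counted, on these scales or on the astrocyte and progenitor scales below. The astrocyte mean differed by −0.17, over 6 markers that were lower and 2 that were higher. Their log2 changes ran from −0.87 for *Fgfr3* to 1.01 for *Gfap*, both named after their values were seen. Against this mixed list the direction was the opposite for most. *Id1*, *Id3*, *Id4*, *Hes1* and *Axin2* differed by −0.35, −0.30, −0.32, −0.17 and −0.22, all with overlap, and *Id2* by 0.11 with overlap. *Notch1* differed by −0.97, with every mutant sample below every WT sample. Set against the mean of the 5 progenitor markers, *Notch1* differed by −1.15 and *Sox6* by −0.61 on the log2 scale, each with every mutant sample below every WT sample. *Id1*, *Id3* and *Id4* differed by −0.54, −0.49 and −0.50 on that scale, with overlap, and *Hes5* by −0.01. The progenitor mean itself differed by 0.01 and was highest in Npc1-/- replicate 1, at 5.62. Not set against it, *Sox6* overlapped between the genotypes.

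Markers of the lineage itself gave no call (limma). Of the 5 progenitor markers 3 were lower and 2 higher (median log2 fold change −0.16), with sums of 445 to 609 scaled TPM in WT and 322 to 610 in Npc1-/- samples. Most of these sums was *Gpr17*, a lower marker named after its values were seen, with 357 to 516 and 250 to 498. Of the 5 markers of immature oligodendrocytes 4 were lower (median −0.14), while their sums went the other way, at 1900 to 3068 and 2765 to 5607. Those sums were mostly *Bcas1*, the higher marker, named after its values were seen, with 1601 to 2770 and 2417 to 5384. All 7 markers of mature oligodendrocytes were higher (median 0.37), with sums of 172357 to 243698 and 218036 to 432454. Of these sums *Mbp* alone held 145087 to 201807 and 183641 to 359525. At an unadjusted p below 0.05, these 3 lists had 1, 0 and 1 higher and 0, 2 and 0 lower genes. All 6 neuronal markers were higher (median 0.43), with *Nefl* and *Nefm* called and sums of 73.2 to 97.1 and 120 to 159. Genes of the dissociation response were lower in 10 of 10 (median −0.33, none called and 1 at an unadjusted p below 0.05 by limma), with sums that overlapped at 212 to 295 and 161 to 297.

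The 5 markers of dividing cells were higher in Npc1-/- samples by a median of 0.24 (limma, none called, and none at an unadjusted p below 0.05), with sums of 21.6, 9.67 and 6.39 scaled TPM in WT and 27.9, 18.2 and 5.28 in Npc1-/- mice 1, 2 and 3. Replicate 1 of each genotype had the highest sum, as it had the highest *Hes5* and *Lingo1*, and Npc1-/- replicate 3 had the lowest value of all 3 measures. Their part in the spread of *Hes5* and *Lingo1* was not tested.

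**Figure D4:**
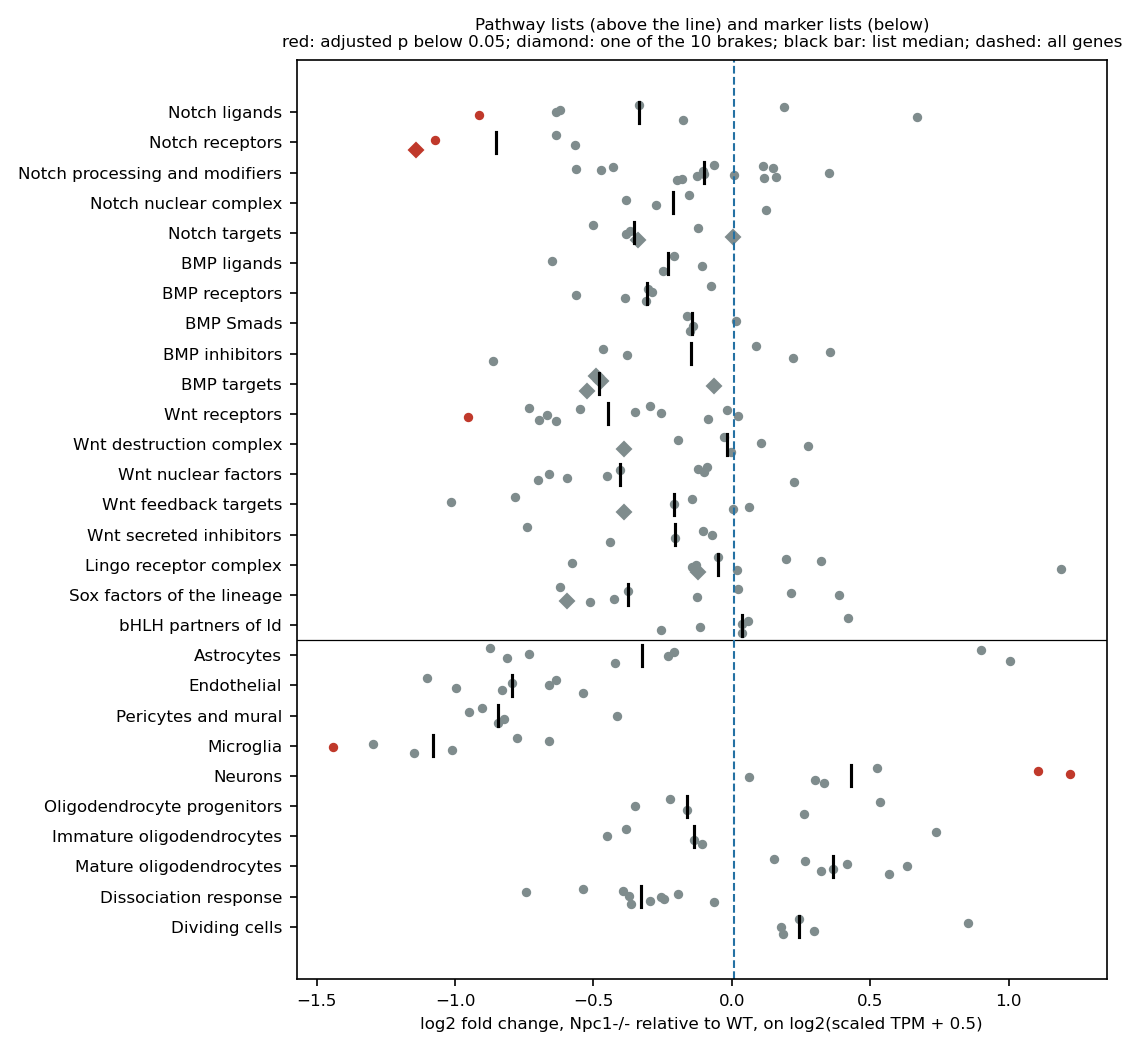
Log2 fold change of every tested gene in the pathway lists (above the line) and marker lists (below), Npc1-/- relative to WT on log2(scaled TPM + 0.5); red marks an adjusted p below 0.05, diamonds the 10 brakes, black bars the list medians and the dashed line the median of all genes. The Notch receptors (median −0.85), endothelial (−0.79), mural (−0.85) and microglial (−1.08) lists lie to the left and the mature oligodendrocyte list (0.37) to the right.

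Over all pathway lists together, 122 of 128 listed genes were tested, of which 4 were called lower (*Notch1*, *Notch3*, *Dll4* and *Fzd4*) and 0 higher by limma. Over all genes tested, 0.413% were called lower and 0.400% higher. At an unadjusted p below 0.05, 44 of the 122 were lower and 4 higher, against 11.6% and 10.6% of all genes. The 4 higher genes were *Psenen*, *Rtn4*, *Ctnnb1* and *Lingo3*, the last named after its values were seen (0.610, 0.615 and 0.664 scaled TPM in WT and 1.24, 5.32 and 1.18 in Npc1-/- mice 1, 2 and 3). In 45 of the 122 every Npc1-/- sample lay below every WT sample, against 14.2% of all genes, and in 6 above, against 13.3%. The median log2 change was −0.19.

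For each brake, the gene whose log2 level followed it most closely over the 6 samples was found among up to 8719 genes averaging 5 TPM or more. The pairs were *Id1* with *Itpr3*, *Id2* with *Xxylt1*, *Id3* with *Rps6ka1*, *Id4* with *Pygb*, *Hes1* with *Nr2f2*, *Hes5* with *Plppr2*, *Notch1* with *Lsamp*, *Lingo1* with *Pdzrn3*, *Axin2* with *Tbc1d1* and *Sox6* with *Mrs2*. The Pearson coefficients lay between 0.975 for *Id2* and 0.999 for *Id3*, each the highest over all genes compared, in 6 libraries of 2 genotypes, with no adjustment for genotype, and they are given as a description alone.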

How the data were processed

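Poly(A) RNA of O4+ cells from 3 WT and 3 Npc1-/- mice was analysed, with groups and replicate numbers taken from the sample titles. The authors deposited TPM and FPKM for 55492 genes, 1 column per mouse. Their methods name bbduk, STAR on GRCm38 and featureCounts; the submitters' processing notes list cutadapt 2.3, STAR 2.7.8a and RSEM 1.3.3. Which tool made the deposited TPM and FPKM values, and whether strand was used, is not given in the sources used here. No columns of other samples were present. FPKM served for depth and as an alternative.

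TPM was divided by median-of-ratios size factors (18690 genes above 0 in every sample), log2(scaled TPM + 0.5) was taken, and genes averaging 0.5 TPM or more entered a limma 3.58.1 model under R 4.3.3 (trend, genotype only). TPM is not a count, so the methods' DESeq2 model was replaced; its thresholds were kept. Whether the samples within a group came from separate litters or preparations is not stated, so p-values measure the spread between these mice. Depth was fitted on 16874 single-transcript genes and gives counting precision only as a guide, since whole fragments cannot be recovered for genes with several transcripts. Alternatives were TPM as deposited, FPKM, quantile normalization, other pseudocounts and filters, no trend, a robust fit, a replicate block, leaving out each sample and, added later, a length correction. Scripts were tested on simulated data. Gene positions came from GENCODE M21 (GRCm38; 55227 identifiers matched) and upstream sequences from RefSeq.

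The genes and lists were chosen with earlier results of these data known. Named were the 10 brakes, every called gene of the pathway lists, the gene with the highest level and that with the smallest p in each list, and the most alike gene of each brake; exceptions are marked. Marker lists covered astrocytes, endothelium, mural cells, microglia, neurons, 3 lineage stages, dissociation and division. Python 3.11.15 with pandas 2.3.3 and matplotlib 3.10.9 made tables and plots.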

Additional observations from a re-analysis of the deposited data

How the results depend on the processing

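Of the 61 genes called higher, 63 called lower, 4 pathway genes called lower and 1 brake called lower, the numbers were as follows under the alternatives that moved them by over 1.5 times. On TPM as deposited 870 genes, 22 pathway genes and 3 brakes were lower, the median of all genes shifting by −0.33. Quantile normalization gave 92 higher, 133 lower, 8 pathway genes and 2 brakes. No filter on low values gave 14, 7, 0 and 0, a mean TPM of at least 5 gave 175, 272, 11 and 2, and limma without trend gave 26, 16, 0 and 0. Leaving out 1 sample at a time gave 4 to 111 higher, 1 to 377 lower, 0 to 14 pathway genes and 0 to 3 brakes. No brake was called higher under any of the 17 alternatives. The cause of these shifts was not tested.

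With the replicate number as a replicate block, 1143 genes were higher and 868 lower, 2 and 21 pathway genes, and 3 brakes were lower: *Notch1*, *Id1* (adjusted p = 0.0225 by limma) and *Id3* (adjusted p = 0.0371 by limma). The numbers mark different mice; same-numbered samples deviated together with correlations of 0.414, 0.0602 and 0.326, each the highest for its pair, which is a hint from the data and not the design.

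*Notch1* was called in 10 of 17 alternatives (log2 change −1.50 to −1.01), and *Id1* and *Id3* in 4 each. Direction changed for *Hes5* on TPM as deposited (−0.28), with a pseudocount of 0.1 (−0.014), with the transcript length curve removed (−0.12, an alternative chosen after seeing the data) and without single samples (−0.36 to 0.38), and for *Lingo1* without single samples (−0.37 to 0.16). The other 8 brakes stayed below 0. On TPM as deposited, *Psenen* (−0.019), *Rbpj* (−0.22), *Zeb2* (−0.29), *Apc* (−0.095), *Ctnnb1* (−0.15), *Rtn4* (−0.049), *Sox10* (−0.35) and *Olig1* (−0.34) turned, and after quantile normalization *Zeb2* (−0.070), *Ctnnb1* (−0.019), *Sox10* (−0.14) and *Olig1* (−0.30). With the length curve removed *Rhoa* was at 0.016 and *Olig1* at −0.0024. Without single samples *Bmp4* ranged from −0.32 to 0.13, *Zeb2* from −0.14 to 0.22, *Sfrp1* from −0.46 to 0.22, *Sox10* from −0.067 to 0.12 and *Olig1* from −0.052 to 0.093. Of the values for the genes named here by rule, 586 kept direction and side of the threshold, 30 passed it newly, 28 no longer did and 33 changed direction. Over all 122 pathway genes there were 97 changes of direction, 26 of them on TPM as deposited and 10 after quantile normalization.

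*Hes5*, at 34 to 149 fragments, is the brake whose depth limits precision most; it had no value at a mean TPM of at least 5.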
